A study of Homo sapiens and Mus musculus with 74 samples.

Results

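Ferritin heavy chain (Fth1), ferritin light chain (Ftl1), the transferrin receptor (Tfrc), the iron importer DMT1 (Slc11a2), the iron exporter ferroportin (Slc40a1) and the iron regulatory proteins IRP1 (Aco1) and IRP2 (Ireb2) were followed in kidney and brain of WT mice and of mice lacking Rpl41. These 7 genes were chosen by symbol from the 22484 genes with a coding transcript in the mouse count table, and each was represented by the transcript that codes for its longest protein. Rpl41 encodes a very small ribosomal protein, and its entire coding sequence was deleted in the KO mice by electroporating Cas9 ribonucleoproteins into C57BL/6J zygotes. The 30 mouse libraries formed 10 groups of 3, namely Ribo-seq and RNA-seq of kidney and of brain and disome-seq of kidney, each from WT and from Rpl41 KO males aged 10 weeks. Ribo-seq counts fragments protected by ribosomes (ribosome-protected fragments, RPFs), disome-seq counts the longer fragments protected by adjoining ribosomes, and translation efficiency (TE) is RPFs over RNA. Nothing in the labels ties a library to an animal across assays, so p-values measure the spread between libraries.

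Cells adjust iron handling largely at the level of translation and mRNA stability. When iron is scarce, IRP1 and IRP2 bind a stem-loop called the iron-responsive element. An element in the 5′ UTR, as in the ferritin and ferroportin mRNAs, then blocks initiation, while elements in the 3′ UTR, as in Tfrc mRNA, shield the message from decay. With ample iron, IRP1 takes up an iron-sulfur cluster and works as a cytosolic aconitase, and IRP2 is degraded. In the kidney, proximal tubule cells take back filtered transferrin through megalin and cubilin, and in the brain, oligodendrocytes hold much of the iron used for myelin.

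The elements were read from the GENCODE M21 transcripts on GRCm38, to show which of the mRNAs measured here carry one. A match was a bulged C, a stem of 5 positions of which at least 4 could pair, and the loop CAGTGN or CAGAGN, on the sense strand of the transcript. Each window is written 5′ to 3′ in lower case with the loop in capitals. The 5′ UTR elements of the storage and export mRNAs were:
Fth1: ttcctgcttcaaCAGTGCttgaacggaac
Ftl1: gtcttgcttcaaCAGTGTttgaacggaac
Slc40a1: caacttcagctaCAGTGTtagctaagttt
They lay at chr19:9982732-9982760 on the plus strand, chr7:45459779-45459807 on the minus strand and chr1:45925465-45925493 on the minus strand. Tfrc held 5 matches in its 3′ UTR on the plus strand of chromosome 16, between 32631160 and 32631738, of which the middle 3 were:
Tfrc, match 2: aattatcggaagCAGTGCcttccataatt
Tfrc, match 3: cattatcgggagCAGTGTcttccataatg
Tfrc, match 4: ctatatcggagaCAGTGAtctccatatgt
The first of the 5 had the loop CAGAGT. Slc11a2 had a match only in the 3′ UTR of another isoform than the one with the longest protein, with 4 of 5 positions paired, at chr15:100395153-100395181 on the minus strand:
Slc11a2: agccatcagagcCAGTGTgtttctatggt
No match was found in Aco1 or Ireb2. The same search matched 1.54% of 19859 genes with a 5′ UTR and 6.8% of 20483 genes with a 3′ UTR, and a match is a description of sequence, not a measured binding site.

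The deletion was visible in every library labelled KO. Rpl41 had 3695 to 12199 RNA-seq reads in WT libraries and 3 to 12 in KO libraries. Library totals ran from 9498663 to 42452425 counts in Ribo-seq, 44998381 to 123745890 in RNA-seq and 1187636 to 3018963 in disome-seq. Summed markers of proximal tubule were 3021 to 4739 CPM in kidney Ribo-seq and 3.19 to 12.6 in brain, and those of neurons 771 to 1005 in brain and 2.79 to 5.44 in kidney. Of 6 pancreatic acinar markers, the sum in kidney Ribo-seq was 1.81 to 118 CPM in WT and 1.06 to 2.03 in KO. The RNA-seq libraries differed in how evenly they covered transcripts. Over 17577 isoforms that end at least 2000 genomic bases before the 3′ end of their gene's longest-protein transcript, the median ratio of isoform to longest-protein counts was 0.0384 and 0.0442 in KO kidney RNA-seq replicates 2 and 3, and 0.0697 to 0.129 in the other 4 kidney RNA-seq libraries. In Ribo-seq of both tissues it was 0.310 to 0.333. KO kidney RNA-seq replicates 2 and 3 also had 1.76% and 1.67% of counts on mitochondrial rRNA, above the 0.436% to 0.962% in the other 4. Leaving both out left 1 KO kidney RNA-seq library, assumed to vary like the WT libraries, so values without them are given below with no p. The part of RNA quality in the RNA and TE values, of kidney or brain, was not tested.

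The 7 genes spanned a wide range of ribosome density in WT tissue. On the scale of RPF CPM (counts relative to library size after TMM scaling) per kb of coding sequence, Fth1 led in WT kidney with 226 ± 30.8 (SD, n = 3). Ftl1 followed with 159 ± 17.7 and Aco1 with 59.4 ± 6.11. Tfrc (20.1 ± 4.24) and Slc11a2 (17.8 ± 2.30) came next and overlapped between libraries, and they stood above Ireb2 (11.8 ± 0.720) and Slc40a1 (6.78 ± 1.88). In WT brain Fth1 again led with 157 ± 16.6, but Tfrc (33.0 ± 9.01) now overlapped with Ftl1 (27.4 ± 1.95). Ireb2 (8.30 ± 0.500) stood above Slc11a2 (6.22 ± 1.39) and Aco1 (5.37 ± 0.500), which overlapped each other, and Slc40a1 was lowest with 1.29 ± 0.521. The largest change of rank between tissues was that of Aco1, which ranked 3 of 7 in kidney and 6 in brain.

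**Figure D1:**
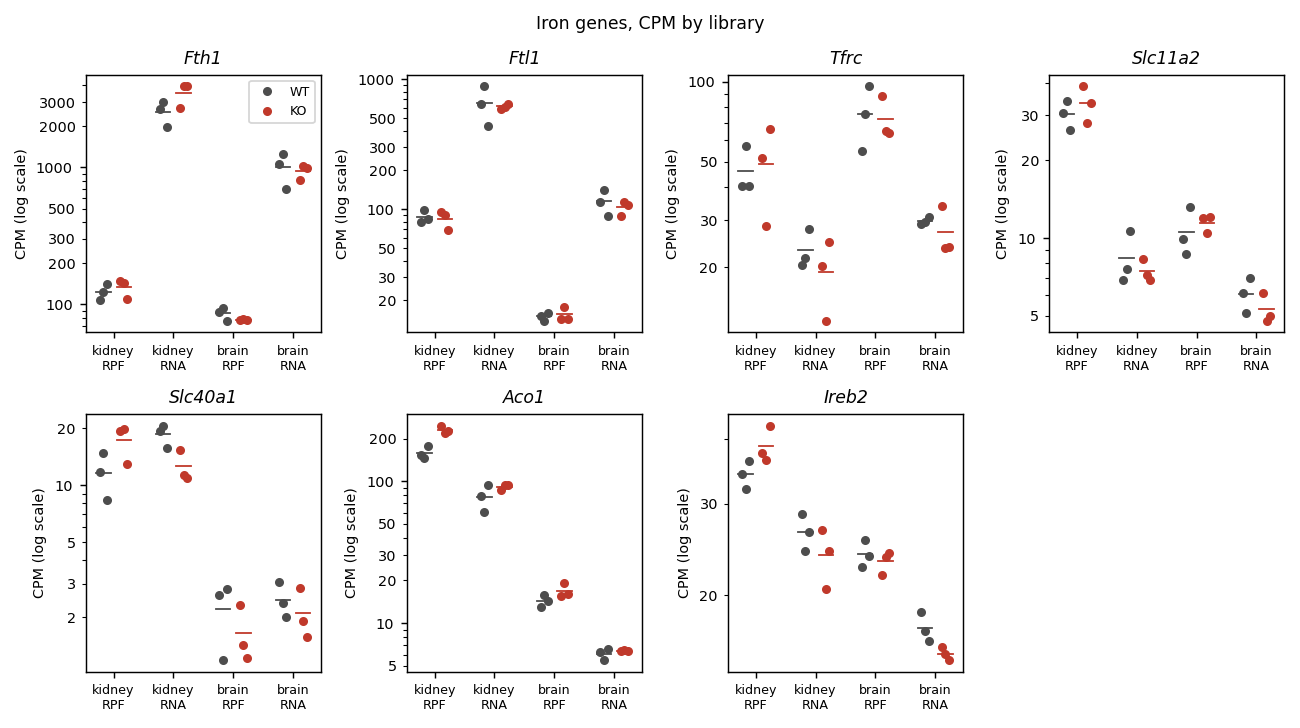
CPM on a log scale for each of the 7 genes in kidney and brain RPF and RNA libraries. Points are libraries, 3 per group, in grey for WT and red for KO, and bars are group means. The 3 KO points of Aco1 in kidney RPF (218 to 247 CPM) lie above the 3 WT points (145 to 177 CPM).

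Footprints per RNA separated the ferritins from the other genes. The log2 ratio of RPF CPM per kb of coding sequence over RNA CPM per kb of transcript was -2.91 for Fth1 in WT kidney, higher than in only 0.127% of 9438 genes with a mean of at least 50 counts in both assays. It was -2.09 for Ftl1, at the 0.403 percentile, against a median of 0.95 over those genes. The proteins of the uptake side lay at the other end, with Slc11a2 at 2.68 (percentile 94.7) and Tfrc at 2.08 (percentile 87.6). The Slc11a2 ratio uses the RNA of its longest-protein form, of 3025 bases. A form of 4415 bases, with nearly the same footprint counts, had 2.14 to 3.54 times that RNA count in WT kidney. The part of isoform choice in the Slc11a2 ratio was not tested. Aco1 (1.55, percentile 74.5) and Ireb2 (1.36, percentile 67.6) were above the median, and Slc40a1, whose mRNA has a 5′ element as the ferritins do, was below it (0.30, percentile 23.4). In WT brain the ferritins again had low ratios, -2.10 for Fth1 (percentile 0.505) and -2.11 for Ftl1 (percentile 0.476), while Tfrc reached 2.44 (percentile 91.7). Slc40a1 had too few footprints in brain for the ratio. The value depends on lengths taken from the annotation and on the uneven RNA coverage given above, and it is a description with no test.

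Reads of the ferritins can also fit their pseudogenes, and the libraries placed them differently. In Ribo-seq, 4 Ftl pseudogene rows together held 212% to 232% of the Ftl1 count in WT libraries, in WT kidney RNA-seq 0.121% to 0.208%, and in WT brain RNA-seq 113% to 115%. The 2 Fth pseudogene rows held 13.5% to 15.0% of the Fth1 count in WT Ribo-seq and at most 0.0176% in WT RNA-seq. With the reads on these rows added to both assays, the log2 ratio in WT kidney was -0.42 for Ftl1 (percentile 8.46) and -2.73 for Fth1 (percentile 0.148). In WT brain it was -1.50 for Ftl1 (percentile 1.46) and -1.90 for Fth1 (percentile 0.738), and with the rows added to footprints alone it was -0.41 for Ftl1 (percentile 8.17). Whether such reads were counted in addition to Ftl1 or in place of it is not given in the sources used here.

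**Figure D2:**
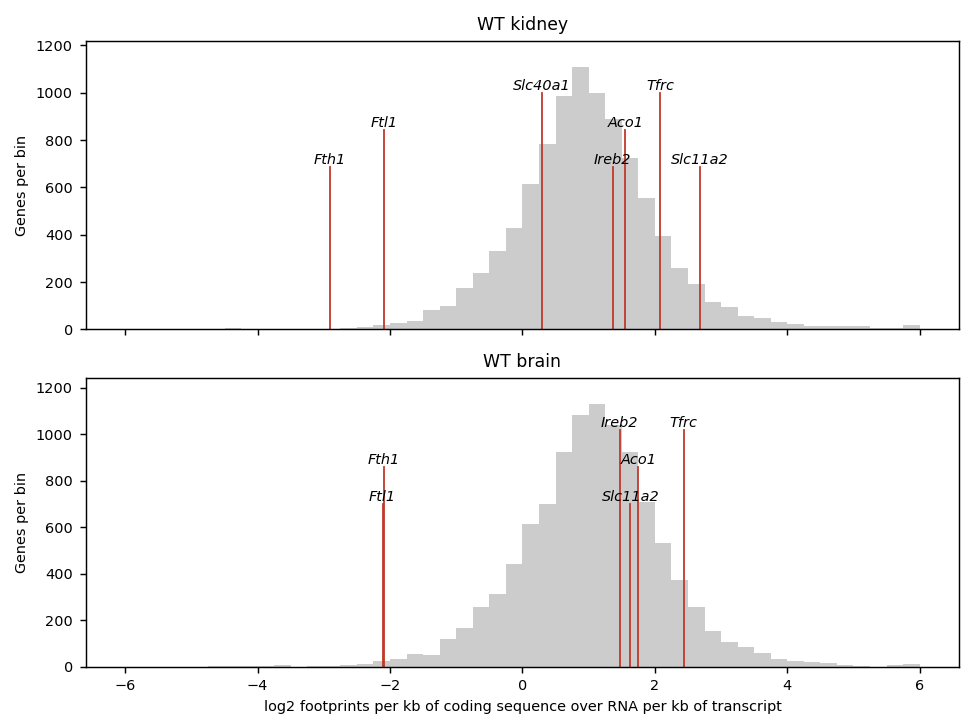
Histogram of the log2 ratio of footprints per kb of coding sequence over RNA per kb of transcript, over 9438 genes in WT kidney and 10300 in WT brain, with lines for the iron genes. Fth1 and Ftl1 stand at the far left in both tissues, and Tfrc to the right of the peak. Slc40a1 has no line in brain because its footprints were under the minimum, and ratios beyond the ends are drawn in the end bins.

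Fewer cells of a type and less RNA per cell cannot be told apart in bulk tissue. In WT mice, kidney and brain differed in footprints of all 7 genes by edgeR's quasi-likelihood test, with 6 higher in kidney and 1 lower (adjusted p under 0.05), as did 75.6% of 14929 genes tested, 37.6% of them higher and 38% lower. Aco1 had 154, 145 and 177 RPF CPM in WT kidney and 13.0, 15.7 and 14.3 in WT brain, a 12.0-fold difference with a log2 value of 3.59 (standard error 0.15, adjusted p = 5.29e-11). Ftl1 was 6.21-fold, Slc40a1 5.26-fold and Slc11a2 3.03-fold higher in kidney. Fth1 (1.56-fold) and Ireb2 (1.54-fold) were also higher in kidney, by less. Tfrc was the gene with fewer footprints in kidney, with 40.5, 57.3 and 40.4 RPF CPM against 54.8, 75.8 and 96.1 in brain (log2 difference -0.61, standard error 0.20, adjusted p = 0.0157). The ranges of its libraries overlapped, and the call was lost without WT brain replicate 3 (-0.37, adjusted p = 0.0971), WT kidney replicate 1 (-0.51, adjusted p = 0.0746) or WT kidney replicate 3 (-0.50, adjusted p = 0.0674).

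RNA followed a similar order. Of the 7 genes, 6 had more RNA in WT kidney than in WT brain and none had less, where 73% of 16011 genes were called, 38.3% higher and 34.8% lower. Aco1 led again with a 15.5-fold higher RNA level, before Slc40a1 (9.19-fold), Ftl1 (7.00-fold) and Fth1 (3.10-fold). The Ftl1 value leaves out the pseudogene rows, which held 113% to 115% of its count in brain and at most 0.208% in kidney, so its size is uncertain. Ireb2 was 1.87-fold and Slc11a2 1.68-fold higher, and scaling by library totals ended the Slc11a2 call (log2 difference 0.50 against 0.75, adjusted p = 0.0905), as did leaving out WT brain RNA-seq replicate 2 (0.62, adjusted p = 0.0558). Tfrc RNA was 20.4, 21.6 and 27.8 CPM in kidney and 29.0, 29.5 and 30.9 CPM in brain, and with the scaling across tissues the log2 difference was -0.07 (standard error 0.15, adjusted p = 0.711).

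The ratio of footprints to RNA differed between WT tissues for Fth1 and Slc11a2, in opposite directions. Fth1 RNA was 2680.0, 2977 and 1962 CPM in WT kidney against 1062, 1260 and 690 CPM in WT brain, while its footprints were 107, 122 and 140.5 CPM against 87.5, 93.9 and 76.0 CPM. Both sets were separate between tissues, the RNA by more, and the TE term was -0.98 (standard error 0.32, adjusted p = 0.0428). Slc11a2 went the other way, with a TE term of 0.87 (standard error 0.29, adjusted p = 0.0437). Of the 7 genes, 1 was thus called higher and 1 lower, where 22.9% of 16560 genes were called, 10.5% higher and 12.5% lower. The median TE difference of all genes was -0.17 here and 0.07 when only 1 transcript per gene was fitted, and under that setting the Fth1 term was -0.73 (adjusted p = 0.0692) and Slc11a2 was still called (adjusted p = 0.0159). The Fth1 call was lost in 10 of 12 fits that left out a library, at all but WT brain RNA-seq replicate 2 and WT kidney RNA-seq replicate 3, with values from -1.16 to -0.71. The Slc11a2 call was lost in 8 of 12, with values from 0.74 to 1.11, and held without replicate 3 of brain Ribo-seq, kidney Ribo-seq or kidney RNA-seq, or without brain RNA-seq replicate 2. The other 5 genes had TE terms from -0.77 (Slc40a1, adjusted p = 0.187) to -0.16 (Ftl1, adjusted p = 0.808). The RNA counts of Slc11a2 are those of its longest-protein form. The 4415-base form had 2.14 to 3.54 times that count in WT kidney and 1.96 to 2.32 times in WT brain. The coverage ratio given above was 0.0697 to 0.129 in WT kidney RNA-seq and 0.121 to 0.175 in WT brain RNA-seq. In each tissue Fth1 RNA was lowest in replicate 3, where that coverage ratio was highest. The parts of isoform choice and RNA coverage in these TE terms were not tested.

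Loss of Rpl41 was compared next in kidney, where Aco1 was the 1 of the 7 genes whose footprints passed the threshold. Slc40a1 had a value of similar size (0.57) that did not pass. With the replicate number as a block, edgeR's test called Slc40a1 (adjusted p = 0.0177) and not Aco1 (adjusted p = 0.0822). Aco1 had 154, 145 and 177 RPF CPM in WT and 247, 218 and 225 in KO, with no overlap between the groups. The log2 difference was 0.54 (standard error 0.13, adjusted p = 0.026). By edgeR's quasi-likelihood test 1 of the 7 genes was thus called, against 9.88% of 13454 genes tested (5.97% higher and 3.91% lower). The call was lost without WT replicate 1 (0.51, adjusted p = 0.0843), WT replicate 2 (0.48, adjusted p = 0.0903), KO replicate 2 (0.57, adjusted p = 0.0814) or KO replicate 3 (0.55, adjusted p = 0.110). Of all calls over transcripts, 61.2% were higher in KO with TMM scaling and 37.6% with library totals, under which the Aco1 value was 0.46 and still called. The number of transcripts called also rested on single libraries, at 5838 in all and 517, 285, 2304 and 2725 without KO replicate 2, KO replicate 3, WT replicate 1 and WT replicate 2. Aco1 RNA was 78.2, 60.5 and 94.1 CPM in WT and 86.7, 93.6 and 93.5 CPM in KO, and these overlapped (0.23, standard error 0.18, adjusted p = 0.451). Its TE term was 0.30 (standard error 0.21, adjusted p = 0.444).

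Ireb2, the other regulatory protein, moved by less. Its footprints were 34.2, 32.1 and 36.2 CPM in WT kidney and 37.5, 36.4 and 42.4 CPM in KO, separate by a small margin. The log2 difference was 0.18 (standard error 0.11, adjusted p = 0.306). Aco1 and Ireb2 were the 2 of 7 genes with such a separation upward in kidney footprints, which 16.8% of 13720 genes showed.

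Ferroportin (Slc40a1) gave RNA and footprint values that pointed in opposite directions in KO kidney, neither past the threshold. Its RNA was 19.4, 20.7 and 15.7 CPM in WT and 15.4, 11.3 and 11.0 in KO, so the KO libraries were all lower, as for 6.7% of 13900 genes. The lowest KO values came from replicates 2 and 3, the libraries with uneven coverage. The log2 difference in RNA was -0.56 (standard error 0.19, adjusted p = 0.292), -0.27 without these 2 libraries, and -0.73 (adjusted p = 0.029) without KO RNA-seq replicate 1, a setting under which 17.0% of 73294 transcripts were called. Its footprints were 11.8, 14.7 and 8.30 CPM in WT and 19.5, 19.9 and 12.9 CPM in KO, and the ranges overlapped (0.57, standard error 0.19, adjusted p = 0.0901). The TE term was 1.15 (standard error 0.33, unadjusted p = 0.00442, adjusted p = 0.130), and it was 0.86 without KO RNA-seq replicates 2 and 3. It passed the threshold with DESeq2 (1.14, adjusted p = 0.0375) and without KO RNA-seq replicate 1 (1.33, adjusted p = 0.0156), where 4.88% of 89685 and 18.0% of 91865 transcripts passed as well, against 0 in the edgeR fit of all libraries.

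The ferritins, Tfrc and Slc11a2 did not pass the test in KO kidney. Fth1 footprints were 107, 122 and 140.5 CPM in WT and 148, 143 and 109 in KO (0.11, standard error 0.15, adjusted p = 0.664). Fth1 RNA was 2680.0, 2977 and 1962 CPM in WT and 2698, 3903 and 3912 CPM in KO (0.46, standard error 0.22, adjusted p = 0.309), with the high KO values again in replicates 2 and 3. The TE term of Fth1 was -0.34 (standard error 0.28, adjusted p = 0.519) and was 0.04 without them. Ftl1 had values near 0, with -0.04 in footprints (standard error 0.14), -0.08 in RNA (standard error 0.24) and 0.05 in TE (standard error 0.31). Tfrc footprints were 40.5, 57.3 and 40.4 CPM in WT and spread from 28.5 to 66.3 CPM in KO, the widest relative spread of the 7 genes in that group. Its log2 difference was 0.08 (standard error 0.24), and that of Slc11a2 was 0.13 (standard error 0.14).

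**Figure D3:**
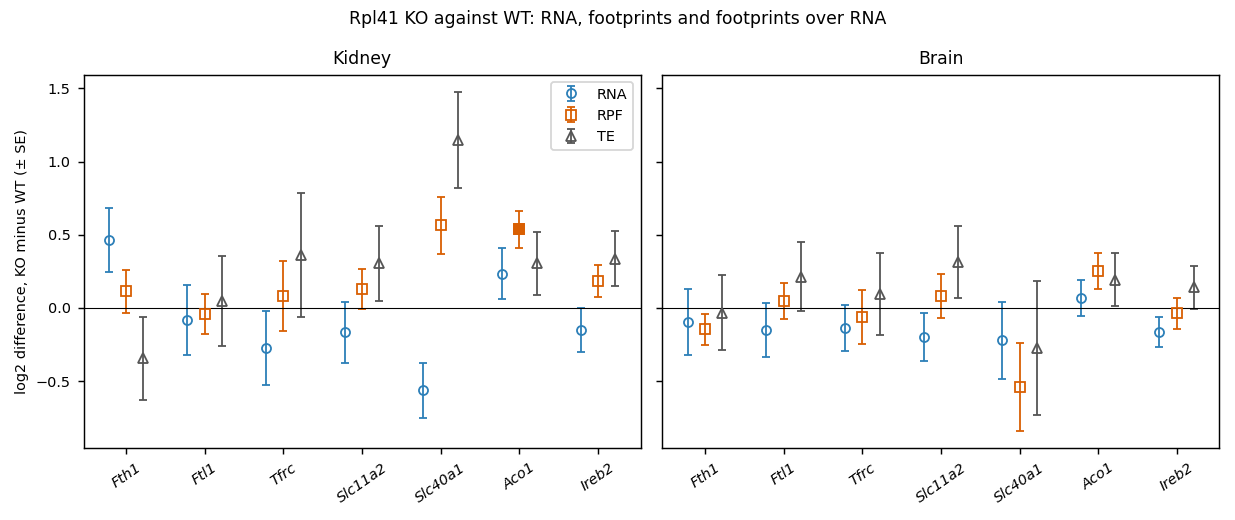
Log2 difference between KO and WT in RNA, RPF and TE for the 7 genes, kidney at left and brain at right. Bars are standard errors of the edgeR fit, filled symbols passed an adjusted p of 0.05 and open ones did not. The filled symbol is Aco1 in kidney RPF (0.54), and Slc40a1 in kidney has RNA at -0.56 and TE at 1.15.

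Over the 7 genes, kidney RNA gave 0 calls by edgeR's quasi-likelihood test, against 0.00719% of 13906 genes tested. In that comparison 1 gene (Slc40a1) had an unadjusted p under 0.05, and DESeq2 called 0. Kidney TE also gave 0 calls, against 0% of 15479 genes, with 1 gene (Slc40a1) at an unadjusted p under 0.05 and the same gene called by DESeq2. The median log2 difference of the 7 was -0.15 in RNA, 0.13 in RPF and 0.30 in TE, beside 0.10, -0.02 and -0.12 over all genes tested. When only 1 transcript per gene was fitted, the medians over all genes were -0.01, -0.02 and 0.00, and those of the 7 were -0.27, 0.13 and 0.44.

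In brain, none of the 7 genes passed the test in KO against WT. RNA gave 0 calls of 7 against 0.00636% of 15731 genes, RPF 0 against 0.0346% of 14465 and TE 0 against 0% of 16721, by edgeR's quasi-likelihood test. Of these values, 0 had an unadjusted p under 0.05, and DESeq2 called 0 in each. Aco1 footprints were 13.0, 15.7 and 14.3 CPM in WT brain and 15.5, 19.2 and 16.0 in KO, overlapping by a small margin (0.25, standard error 0.12, adjusted p = 0.427). Slc40a1 was the member with the lowest brain level, at 11 to 63 footprints per library, and its value was -0.54 (standard error 0.30, adjusted p = 0.477). The other 5 genes had RPF differences between -0.15 (Fth1) and 0.08 (Slc11a2). Ireb2 RNA was 18.6, 17.1 and 16.3 CPM in WT brain and 15.9, 15.5 and 15.0 in KO, separate between the groups as for 3.25% of 15767 genes, with a log2 difference of -0.16 (standard error 0.10, adjusted p = 0.898).

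The genotype difference was also compared between the tissues, as the tissue by genotype term. No term of the 7 genes passed the threshold by edgeR's quasi-likelihood test, in RNA (0 of 7, against 0% of 16426 genes), RPF (0 of 7, against 0.141% of 15612) or TE (0 of 7, against 0% of 17176). At an unadjusted p under 0.05 the counts were 0, 1 and 1, and both of the latter were Slc40a1. Its footprints differed by 0.57 in kidney and -0.54 in brain, a term of 1.14 (standard error 0.39, unadjusted p = 0.00981, adjusted p = 0.470). The Aco1 term in RPF was 0.27 (standard error 0.18, adjusted p = 0.772), so its higher value in kidney was not shown to differ from that in brain.

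Disomes were measured in kidney alone. Aco1 had 142, 111 and 145 disome CPM in WT and 209, 188 and 211 in KO, again without overlap, and it was the 1 gene of 7 with this separation upward, which 8.65% of 7669 genes showed. Its log2 difference of 0.62 (standard error 0.16, unadjusted p = 0.000718, adjusted p = 0.127) missed the threshold in edgeR's test and passed it in DESeq2 (0.62, adjusted p = 0.0298), which called 0.184% of 34754 transcripts. Fth1 had 223, 194 and 237 disome CPM in WT and 226, 448 and 349 in KO (0.65, standard error 0.19, adjusted p = 0.190), with KO disome replicate 1 inside the WT range. Without that library the Fth1 value was 0.88 (adjusted p = 0.0189).

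Ftl1 had 124 to 398 disome reads per library and no call. Tfrc, Ireb2, Slc11a2 and Slc40a1 had at most 101 reads in any library, and Slc40a1 7 to 28. Of the 7 genes, edgeR's test called 0 in disomes against 0.154% of 7773 genes, with 2 (Aco1 and Fth1) at an unadjusted p under 0.05. Relative to RPFs it called 0 against 0% of 12242 genes, with 1 (Fth1, 0.55, standard error 0.26, unadjusted p = 0.0484) at an unadjusted p under 0.05, and DESeq2 called 0. The disome value of Aco1 relative to RPFs was 0.10 (standard error 0.20).

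Alas2 and Epas1, whose mRNAs are also known to carry elements, were read alongside. The erythroid heme enzyme Alas2 had a match in the 5′ UTR, and none was found in the hypoxia factor Epas1 with these letters. Epas1 footprints were 81.8, 69.4 and 64.0 CPM in WT kidney and 96.1, 101 and 91.0 in KO (0.42, standard error 0.12, adjusted p = 0.0515). The groups did not overlap, a separation upward that 16.8% of 13720 genes showed, and the difference did not pass the threshold. Epas1 RNA was lower in every KO kidney library, as for 6.7% of 13900 genes (-0.54, standard error 0.14, adjusted p = 0.292). Its TE term was 0.96 (standard error 0.19, adjusted p = 0.109). That term was 0.80 without KO kidney RNA-seq replicates 2 and 3. It passed the threshold in 2 of 8 alternatives, DESeq2 and 1 transcript per gene (lowest adjusted p 0.000606). It also passed without KO kidney RNA-seq replicate 1 (adjusted p = 0.00446). In these settings 4.88% of 89685, 1.77% of 15613 and 18.0% of 91865 transcripts passed as well, against 0 in the edgeR fit of all libraries. Alas2 RNA was 3.07, 12.5 and 3.28 CPM in WT brain and 1.86, 2.95 and 2.48 CPM in KO brain, with WT replicate 2 far above the rest. That library also had the highest sum of the 5 erythroid markers, 2398 CPM against 697 to 827 in the other WT brain RNA-seq libraries and 378 to 793 in KO, and the part of blood in the Alas2 value was not tested.

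Of 64 other iron genes, 57 were tested in kidney footprints and 9 passed, 5 higher and 4 lower in KO. The list was chosen with earlier results of these data known. Its 9 calls of 57 were not tested against the 9.88% over all genes. At an unadjusted p under 0.05 in edgeR's test there were 23 of 57, where 25.3% of all transcripts were under it. When only 1 transcript per gene was fitted, that share was 28.6%. The median log2 difference of the list was -0.03, and that of all genes -0.02. Among carriers and receptors, 3 of 14 tested rose, and these were the endocytic receptors Lrp1 (1.08, standard error 0.25, adjusted p = 0.0247), megalin (Lrp2, 0.62, adjusted p = 0.0456) and cubilin (Cubn, 0.61, adjusted p = 0.0331). The ferroxidase ceruloplasmin (Cp) rose by 0.49 (adjusted p = 0.0292), as 1 of 3 export and oxidation genes. Of 19 genes of mitochondrial iron and iron-sulfur clusters, 4 fell. These were the carrier mitoferrin (Slc25a37, -0.66, adjusted p = 0.0487), the cluster assembly proteins Isca1 (-0.63, adjusted p = 0.00913) and Isca2 (-0.48, adjusted p = 0.0233), and the glutaredoxin Glrx5 (-0.46, adjusted p = 0.0420). DESeq2 called 7 of the 57 genes, with 2 of the 14 carriers and receptors and 2 of the 19 mitochondrial genes. It called 4.65% of all transcripts. In edgeR's test with the replicate number as a block, Lrp2 (adjusted p = 0.268), Cubn (0.133), Slc25a37 (0.0758) and Glrx5 (0.0583) were no longer called. Lrp1, Cp, Isca1 and Isca2 still were.

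The genes of this list named as higher code for proteins of 1086 to 4660 residues and those named as lower for 129 to 338 residues. Aco1, outside the list and also higher, codes for 889 residues. Not every called gene of the list is named, and protein length was not tested. Of the 4 storage, 13 heme and 2 regulator genes tested, 0 passed in edgeR's test, with 1, 1 and 0 at an unadjusted p under 0.05, and DESeq2 called 0. Epas1, on the list for its element, was called by DESeq2. Lrp2 is also a proximal tubule marker, and the sum of the 4 proximal tubule markers in footprints was 3021 to 3532 CPM in WT kidney and 4012 to 4739 CPM in KO, while in RNA it was 2949 to 3170.1 and 3206 to 3763. Of those 4 markers, 1 (Lrp2) was called in footprints. Sums of the 5 distal nephron markers were 1299 to 1547 CPM in WT and 1769 to 2011 in KO footprints, and those of 4 endothelial markers 62.1 to 93.0 and 102 to 111. In RNA both sums were lower in KO without overlap, at 1647 to 1820.1 against 1434 to 1583 CPM and at 33.4 to 43.4 against 26.8 to 31.1 CPM. The sum of 2 podocyte markers was 22.0 to 29.3 CPM in WT and 13.6 to 14.6 in KO RNA, 15.4 to 16.7 and 0.975 to 6.03 in disomes, and overlapped in footprints. Of single genes, 16.8% of 13720 had every KO library above every WT library in kidney footprints. Every KO library was below for 6.7% of 13900 in kidney RNA and for 8.51% of 7669 in disomes. The KO RNA sums include replicates 2 and 3, the libraries with uneven coverage. The part of tubule content in the Aco1, Lrp2 and Cubn values was not tested. The Isca1 call was lost in 1 of 6 fits that left out a library (KO replicate 3), and each of the other 8 calls in 3 to 5 of 6, among them always those without KO replicate 2 and without KO replicate 3. In the other comparisons of KO with WT, edgeR's test called 0 of the 64 genes. At an unadjusted p under 0.05 there were 14 of 57 tested in kidney RNA, 19 of 60 in kidney TE, 4 of 62 in brain RNA, 12 of 60 in brain RPF, 4 of 63 in brain TE, 11 of 40 in disomes and 5 of 56 in disomes relative to RPFs, where over all transcripts 16.8%, 19.4%, 3.46%, 12.6%, 4.85%, 10.8% and 5.91% were under it. When only 1 transcript per gene was fitted, the shares over genes were 18.1%, 21.2%, 7.27%, 13.9%, 8.03%, 11.4% and 5.92%. DESeq2 called 1, 11, 0, 1, 0, 1 and 0 genes of the list in the same order, and 0.659%, 4.88%, 0.0258%, 0.478%, 0.0172%, 0.184% and 0.00746% of all transcripts.

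**Figure D4:**
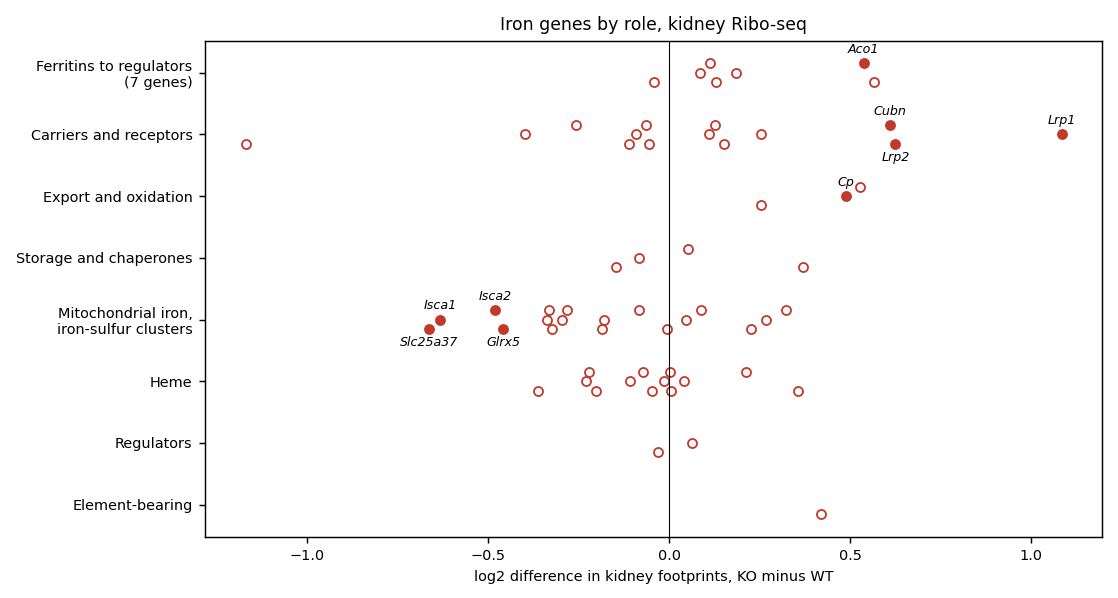
Log2 difference between KO and WT in kidney footprints for the 7 genes and for the other iron genes reported here, by role. Filled circles passed an adjusted p of 0.05 and are named. Lrp1 lies farthest right of the filled circles at 1.08 and Slc25a37 farthest left at -0.66.

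The Slc11a2 isoform that holds the 3′ element shares its footprints almost wholly with the longest-protein form, with ratios of Ribo-seq counts from 0.988 to 1.03 in all libraries. In RNA-seq, where the 3′ UTRs differ, the ratio of the element form to the other was 3.54, 2.55 and 2.14 in WT kidney and 2.35, 2.23 and 2.81 in KO kidney. It was 2.08, 2.32 and 1.96 in WT brain and 2.08, 2.69 and 2.61 in KO brain, so the genotypes overlapped in both tissues. These counts are not scaled for length and carry the uneven RNA coverage described above. For Tfrc, a shorter annotated form of 1860 bases had 0.640 to 0.667 of the longest-protein form's count in WT Ribo-seq, and 0.00861 to 0.125 in WT RNA-seq.

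Likeness of levels was measured over the 30 libraries. Among 13437 coding genes, the highest Pearson correlations of log2 CPM were those of Aco1 with Mut (r = 0.996) and Mccc1 (r = 0.993), and of Fth1 with Bag1 (r = 0.987) and Wbp1 (r = 0.984). Ftl1 was nearest to Fgf1 (r = 0.975) and Riok3 (r = 0.972), Slc40a1 to Cldn19 (r = 0.953) and Sfrp1 (r = 0.949), and Slc11a2 to Mfsd4b2 (r = 0.951) and Cyp2j8 (r = 0.949). Tfrc had weaker partners, Dhcr7 (r = 0.886) and Ccnh (r = 0.883), and Ireb2 was nearest to Serping1 (r = 0.935) and Gpat3 (r = 0.909). The points share tissues, assays and library depth, so these values are a description with no test.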

How the data were processed

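The authors trimmed adaptors with cutadapt, dropped low-quality and rRNA reads, and aligned the rest with STAR to the GRCm38 transcriptome and mm10 genome, keeping multimapping reads. Their processing notes name featureCounts (Subread), and its settings for the mouse table are not given in the sources used here. They deposited read counts per transcript, not normalized. A second table of human transcripts carries 28 columns named as mouse samples and was not used. Genes, transcripts and UTR sequences came from GENCODE M21 on GRCm38, with 141374 of 142604 transcripts matched. Members and gene lists were chosen with earlier results of these data known.

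All transcripts were fitted with edgeR (filterByExpr, TMM within assay, quasi-likelihood F-test, Benjamini-Hochberg, threshold 0.05). Standard errors are the log2 difference over the square root of F. TE is the assay by genotype term, and tissue terms were fitted likewise. CPM was scaled by TMM within tissue and assay. All 7 genes passed the filter in every fit. The study used RiboDiff for TE. Named genes are the 7, Alas2, Epas1, listed iron genes with an adjusted p under 0.05 in KO against WT, the 2 most correlated genes of each member (log2 CPM, prior count 2, mean count at least 50), and Rpl41. Some genes that meet this rule are counted in list totals and not reported here. A gene is shown by its longest-protein transcript.

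Alternatives were DESeq2, library totals, 1 transcript per gene, no filter, at least 10 counts per library, replicate blocks and each library left out. On simulated counts with transcripts changed by 2 on the log2 scale, the kidney RPF test recovered 100% of 200 among 14844 transcripts, kidney RNA 56.5% of 193 among 14599 and kidney TE 45.7% of 197 among 14686. R 4.3.3, edgeR 4.0.16, DESeq2 1.42.0, Python 3.11.15, numpy 2.4.6, pandas 2.3.3 and matplotlib 3.10.9 were used.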

Additional observations from a re-analysis of the deposited data

How the results depend on the processing

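Depth limits the small counts most, as for Slc40a1 in brain footprints and disomes, and the spread of RNA-seq libraries limits RNA and TE. Values smaller than their standard error were given no direction. A change of sign among them was counted as direction kept, unless a call was involved. Of 715 values of named genes under other settings than leaving out a library, 682 kept direction and side of the threshold by this rule. A further 17 lost a call, 14 gained one and 2 changed sign. Both counted changes of sign came without KO kidney RNA-seq replicates 2 and 3, for Ireb2 in kidney RNA (0.013) and Fth1 in kidney TE (0.043). That setting was a choice made after seeing the data, and it leaves 1 KO library.

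Of the 7 genes, the number called in kidney RPF rose from 1 to 2 with no filter beyond 1 count in any library, Slc40a1 being added. Of all transcripts, 7.81% were then called, against 7.76% in the edgeR fit of all libraries. In kidney TE the number went from 0 to 1 with DESeq2 (Slc40a1), which called 4.88% of transcripts against 0%. In kidney disomes the number went from 0 to 1 with DESeq2 (Aco1) and to 1 with no filter (Fth1). These called 0.184% and 0.287% of transcripts, against 0.201%. In WT kidney against brain TE the number went from 2 to 1 with 1 transcript per gene, which kept Slc11a2. That setting called 24.7% of transcripts, against 19.8%. The causes were not tested. When each library was left out, the number called ranged from 0 to 1 in kidney RNA, RPF, TE and disomes. In WT kidney against brain TE it ranged from 0 to 2. The call in kidney RNA and that in kidney TE came without KO kidney RNA-seq replicate 1, where 17.0% and 18.0% of transcripts were called. Among values at least as large as their standard error, 3 changed sign in the fits that left out a library. They were Alas2 in kidney RPF (-0.35 to 0.024), Slc40a1 in disomes (-0.10 to 0.80) and the Alas2 tissue term in RNA (-0.051 to 1.33). Smaller values also changed sign, such as Ftl1 in kidney RNA (-0.31 to 0.20) and Tfrc in kidney RPF (-0.22 to 0.37). The count of transcripts called in kidney RPF was 5838, between 3497 (DESeq2) and 9936 (no filter), and between 285 and 5843 when a library was left out.

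With the replicate number as a block, the number of the 7 genes called in kidney RPF stayed 1, but the gene called was Slc40a1 (0.59, adjusted p = 0.0177) and no longer Aco1 (0.54, adjusted p = 0.0822), and in disomes the number went from 0 to 1 (Aco1, 0.62, adjusted p = 0.0262). The block called 5.33% of transcripts in kidney RPF and 0.725% in disomes, against 7.76% and 0.201% without it. Deviations from group means of same-numbered WT and KO libraries correlated between -0.40 and 0.43, and 7 of 15 correlated best with their own number, so they share only a number. Those of different assays correlated between 0.02 and 0.32, and 18 of 18 correlated best with their own number. A replicate block within genotype changed no call of the 7 in kidney TE, brain TE or disomes relative to RPFs.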
